A study of Danio rerio with 6 samples.

Results

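The genes described here belong to Fgf (fibroblast growth factor) signalling and were followed along the proximal-to-distal axis of the regenerating zebrafish caudal fin. They comprise 3 ligands (fgf8a, ENSDARG00000003399; fgf10a, ENSDARG00000030932; fgf24, ENSDARG00000037677), 1 receptor (fgfr1a, ENSDARG00000011027) and 3 genes known to respond to the pathway (dusp6, ENSDARG00000070914, etv4, ENSDARG00000018303, and etv5b, ENSDARG00000044511). They were listed by identifier with earlier results of these data known, and all 7 were found among the 31901 genes of each count file. The study dissected regenerates at 96 hours post amputation, in fish carrying the shha:eGFP reporter, into a distal piece holding the reporter signal and a proximal piece. It sequenced messenger RNA from 3 distal and 3 proximal samples, numbered 2, 3 and 4 in both regions, with 4 fins pooled in each sample. Both groups therefore share the transgene, the amputation and the time, and no uninjured fin was analysed here. The distal piece was set by reporter fluorescence, not by Fgf expression.

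Fgf ligands are secreted proteins that bind receptor tyrosine kinases at the cell surface with the help of heparan sulfate chains. The active receptor passes the signal through Ras and a kinase cascade to ERK, which acts on transcription factors of the ETS family. Several target genes of the pathway encode its own inhibitors. In zebrafish, Fgf signalling is required for the blastema, the mass of dividing cells at the fin stump, to form and for the fin to grow out.

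The libraries held 20113859 to 23629159 reads assigned to genes, and 3 reads, taken as the detection floor, correspond to levels of 0.127 to 0.149 CPM (reads per 1000000 reads assigned to genes). The regions parted along the first principal component of the 18455 tested genes (67.5% of the variance). Both samples numbered 4 parted from the others along the second component (19.5%). Reads assigned to no feature made up 14.1% to 14.6% of uniquely aligned reads in distal and 10.8% to 12.6% in proximal libraries. These may include reads within genes, and the part of this in the results was not tested. Of the 2 genes that the gene table lists as SHH, ENSDARG00000068567 had 14.0, 19.0 and 20.1 CPM in distal samples 2, 3 and 4 and 6.73, 5.76 and 5.35 CPM in proximal samples, which is a difference of 1.45 on the log2 scale (SE 0.17; edgeR, adjusted p = 0.000627). The other had no more than 2 reads in any library. The table does not say which of these genes is shha, the gene of the reporter.

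All 7 Fgf genes were higher in distal tissue (edgeR quasi-likelihood test, Benjamini-Hochberg adjusted p under 0.05 over all 18455 genes tested). Higher distal expression passed the same threshold for 15.3% of all tested genes. With the replicate block (a term per sample number) this was 23.3%, and without both samples numbered 4 it was 14.5%. The 7 genes passed in these fits too. Without both samples numbered 2, 5 of the 7 genes passed, beside 1243 of all tested genes. Without both numbered 3, 6 of the 7 passed, beside 1699 of all tested genes. In the main fit 6 of the 7 were also at least 2-fold higher, as were 7.24% of tested genes. In each of the 7 genes every distal sample also lay above every proximal sample, which held for 30.1% of tested genes. The median log2 fold change of the 7 genes was 1.98, and that of all tested genes was -0.01. For fgf8a the filter on low counts was passed only through its distal libraries, and its call is to be read with that in mind. Fold changes of the main fit are distal over proximal after TMM scaling. Within-pair log2 ratios and ratios of summed reads are ratios of CPM without TMM scaling. CPM values are not divided by gene length, so levels are compared between regions and not between genes.

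**Figure D1:**
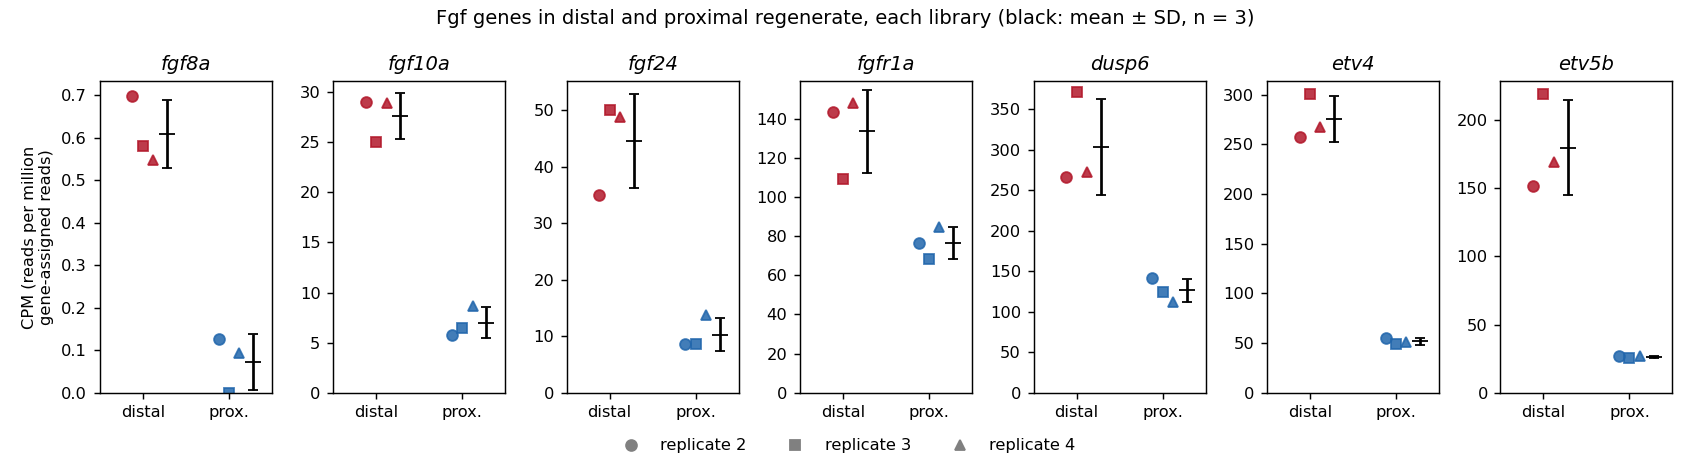
CPM of each Fgf gene in each library, with distal samples in red and proximal samples in blue, marker shapes for the replicate number, and the black bar giving the mean ± SD (n = 3). The axes start at 0 and differ between genes. In every panel the distal points lie above the proximal points, and relative to its level the gap is narrowest for fgfr1a.

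Among the ligands, fgf24 had 34.9, 49.9 and 48.7 CPM in distal samples 2, 3 and 4, and 8.59, 8.64 and 13.7 CPM in the proximal samples of the same numbers. The lowest distal sample was thus well above the highest proximal one. The means were 44.5 ± 8.33 and 10.3 ± 2.93 CPM (SD, n = 3 each), a log2 fold change of 1.98 (SE 0.23; adjusted p = 0.000606) or 3.95-fold. The gene encodes a secreted ligand of the Fgf8 subfamily, known in zebrafish from pectoral fin initiation.

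The ligand gene fgf10a, whose product signals from mesenchyme to the overlying epithelium in vertebrate limb and fin buds, had 29.0, 25.0 and 28.9 CPM in the distal samples and 5.76, 6.45 and 8.71 CPM in the proximal samples. The distal values varied little, with a coefficient of variation of 8.18%, and proximal sample 4 was the highest of its region, as it was for fgf24. The log2 fold change of fgf10a was 1.86 (SE 0.19; adjusted p = 0.000279), and 3.64-fold on the linear scale. The within-pair log2 ratios of CPM were 2.33, 1.96 and 1.73 for numbers 2, 3 and 4 in fgf10a, and 2.02, 2.53 and 1.83 in fgf24.

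The third ligand, fgf8a, known for its role at the midbrain-hindbrain boundary of the zebrafish embryo, was close to the detection limit. Its distal libraries held 15, 13 and 11 reads, or 0.698, 0.582 and 0.547 CPM, and its proximal libraries held 3, 0 and 2 reads. Each proximal library was at or under the floor, so fgf8a was not detectable above it in proximal tissue at this depth. The exact 95% binomial (Clopper-Pearson) interval of the lowest distal library, 0.273 to 0.979 CPM, overlapped that of the highest proximal library, 0.0262 to 0.371 CPM. Summed over libraries, 39 distal reads faced 5 proximal reads, a ratio of CPM of 8.17 with an exact 95% interval of 3.22 to 26.6 that covers counting error only. The fitted log2 fold change was 2.82 (SE 0.63; adjusted p = 0.0121). With both samples numbered 2 or both numbered 3 left out, the adjusted p of fgf8a was 0.0889 or 0.0506.

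The receptor gene fgfr1a, which encodes a receptor tyrosine kinase expressed in the blastema of zebrafish fins, differed least between the regions. It had 144, 109 and 148 CPM in the distal samples and 76.5, 68.3 and 84.8 CPM in the proximal samples. Distal sample 3 was the lowest of its region and lay nearer to the proximal samples than the other distal samples did. On the log2 scale the difference was 0.68 (SE 0.16; adjusted p = 0.0149), or 1.60-fold. Leaving out distal sample 2 gave 0.62 with an adjusted p of 0.0545, and leaving out proximal sample 2 gave 0.68 with an adjusted p of 0.0505. Over all genes these fits called 3920 and 3904 genes, against 5480 in the main fit. The fit without distal sample 3 called 3807 genes, and fgfr1a passed in it with the other members. The cause of the lost calls was not tested. With the sample number as a block the difference of fgfr1a was 0.67 (SE 0.08; adjusted p = 2.77e-05), and its within-pair log2 ratios of CPM were 0.91, 0.67 and 0.80.

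The response genes had higher distal levels in every sample. The ETS factor gene etv5b had 151, 219 and 169 CPM in the distal samples and 27.3, 25.8 and 26.7 CPM in the proximal samples. Its proximal libraries lay within a coefficient of variation of 2.77%, and its log2 fold change was 2.63 (SE 0.14; adjusted p = 1.46e-05), or 6.19-fold. The related ETS factor gene etv4, also called pea3, had 257, 301 and 267 CPM in the distal samples and 55.6, 49.1 and 50.9 CPM in the proximal samples. Its log2 fold change was 2.28 (SE 0.10; adjusted p = 7.9e-06), or 4.87-fold.

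The gene dusp6 encodes a phosphatase that inactivates ERK and so limits the signal that induces it. It had 266, 372 and 272 CPM in the distal samples and 141, 125 and 113 CPM in the proximal samples, a log2 fold change of 1.14 (SE 0.14; adjusted p = 0.000777) or 2.21-fold. The within-pair log2 ratios of dusp6, 0.91, 1.57 and 1.27 for numbers 2, 3 and 4, were each below those of etv4 (2.21, 2.62 and 2.39) and of etv5b (2.47, 3.08 and 2.66). The fold changes of etv5b, etv4 and dusp6 ranked 266, 351 and 1211 among the 18455 tested genes, counted from the most distal.

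The members differed in which library was highest within a region. In distal tissue, sample 3 was the highest for fgf24, dusp6, etv4 and etv5b and the lowest for fgf10a and fgfr1a. Sample 3 was the highest distal library for 39.8% of all tested genes. In proximal tissue, sample 4 was the highest for fgf10a, fgf24 and fgfr1a, and sample 2 was the highest for dusp6, etv4 and etv5b. With 3 libraries in each region these orders are a description without a test.

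Ratios of 2 genes' reads within a library do not depend on library scaling, and 6 such ratios were compared between the regions. The choice of ratios was made after the members' values were seen. The log2 ratio of etv4 to dusp6 reads was -0.05, -0.30 and -0.03 in distal samples 2, 3 and 4 and -1.35, -1.35 and -1.15 in proximal samples. It was higher in distal tissue by 1.15, and the regions did not overlap. The log2 ratio of etv5b to dusp6 was -0.76 ± 0.06 in distal and -2.24 ± 0.15 in proximal samples (SD, n = 3 each), a difference of 1.49. The smaller difference between the ETS genes, 0.33 for etv5b over etv4, also separated the regions.

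The log2 ratio of fgf24 to fgfr1a was higher in distal tissue by 1.33, and that of fgf10a to fgfr1a by 1.21. Each of these 5 ratios had an exact two-sided permutation p-value of 0.1, below which 3 against 3 samples cannot go, and an adjusted p of 0.12 (Benjamini-Hochberg, 6 ratios). The ratio of the ligands fgf24 and fgf10a differed less than its spread, with log2 values of 0.67 ± 0.37 in distal and 0.55 ± 0.12 in proximal samples (SD, n = 3 each; exact permutation p = 0.6, adjusted 0.6). Its distal values, 0.27, 1.00 and 0.75 for samples 2, 3 and 4, enclosed all proximal values.

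**Figure D2:**
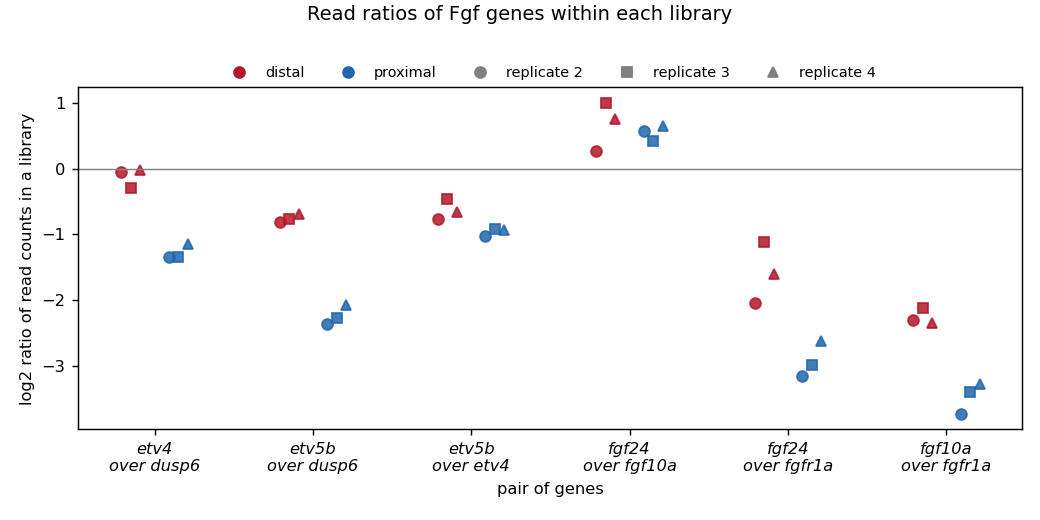
Log2 ratio of the read counts of 2 Fgf genes in each library, for 6 pairs of genes, with distal libraries in red, proximal libraries in blue and marker shapes for the replicate number. Distal and proximal points are apart in 5 pairs and overlap for fgf24 over fgf10a.

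The wider pathway was described through 6 lists of symbols, which gave 108 genes besides the members, of which 87 had enough reads to be tested. The gene table often gives a human-style symbol without the letter that marks zebrafish gene copies, so copies that share a symbol are named here by identifier. Across the lists 32 genes were higher in distal tissue, 12 were higher in proximal tissue and 43 did not pass the threshold. The replicate block gave 43 distal and 17 proximal calls, in a fit that called 48.4% of all tested genes. Of the 87 genes, 4 passed the filter on low counts only through distal and 1 only through proximal libraries, and all 5 were called in that direction. The share called, 50.6%, stands beside 29.7% of all tested genes, and the median log2 fold change of the 87 genes was 0.32. Scaling by library size alone in place of TMM gave 39 distal and 9 proximal genes. Leaving out both samples numbered 2 or both numbered 3 gave 25 called genes in either case, and leaving out both numbered 4 gave 42.

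**Figure D3:**
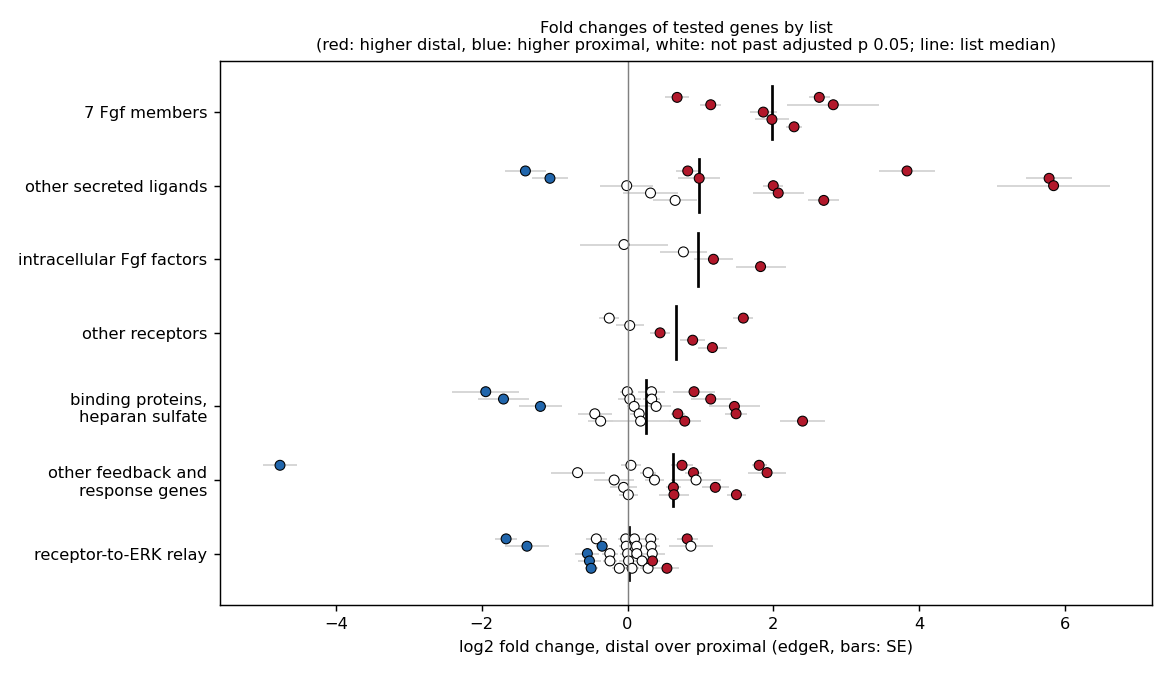
Log2 fold changes (distal over proximal, with SE) of the tested genes of the 7 members and of each list, 1 point per gene; red and blue points passed the adjusted p threshold of 0.05 in the distal or proximal direction, and white points did not. Vertical lines mark list medians, which run from 1.98 for the members to 0.01 for the receptor-to-ERK relay.

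Of 22 further secreted ligands 13 were tested, of which 8 were higher in distal tissue (15.3% of all tested genes were) and 2 in proximal tissue (14.4%). The other 9 reached no more than 0.497 CPM in any library. FGF4 had 7.96, 11.6 and 10.9 CPM in distal samples 2, 3 and 4, against 4, 2 and 5 reads in the proximal libraries. In its summed reads this was a CPM ratio of 62.0 with an exact 95% interval of 34.4 to 125. The fitted fold change after TMM scaling was 55.0. FGF4 is a ligand gene of the apical ectodermal ridge in tetrapod limbs.

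The 2 genes listed as FGF20 both rose distally. ENSDARG00000007356 had 12.8, 25.5 and 21.8 CPM in distal and 0.846, 1.01 and 2.00 CPM in proximal samples, a log2 fold change of 3.83 (SE 0.38; adjusted p = 0.00026). ENSDARG00000086070 had a log2 fold change of 2.07 (SE 0.35; adjusted p = 0.00335). Zebrafish fgf20a is known to be needed for the blastema to form, and the table does not say which identifier it is.

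FGF3 had 19.8, 19.6 and 12.8 CPM in distal samples and 2.84, 2.24 and 2.33 CPM in proximal samples (log2 fold change 2.69, SE 0.21; adjusted p = 8.44e-05). The ligand gene fgf2 was higher in distal tissue by 2.00 (SE 0.14; adjusted p = 4.83e-05). FGF22 rested on 80 distal reads against 1 proximal read, a ratio of CPM of 83.8 with an exact 95% interval of 14.6 to 3351. Its fitted fold change after TMM scaling was 57.4. Like FGF4, FGF22 passed the filter only through distal libraries.

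In the opposite direction, fgf7 had 3.40, 1.61 and 2.19 CPM in distal and 6.35, 5.35 and 5.82 CPM in proximal samples, and fell distally by 1.40 (SE 0.28; adjusted p = 0.00731). Its product is a mesenchymal ligand for epithelial receptors in mammals. The gene listed as FGF18 under ENSDARG00000088048 was also lower in distal tissue, with a log2 fold change of -1.06 (SE 0.25; adjusted p = 0.0144). Without distal sample 2 or distal sample 3 its adjusted p was 0.0551 or 0.0577. The other gene listed as FGF18, ENSDARG00000043962, had means of 1.34 CPM in distal and 0.995 CPM in proximal samples. It did not pass the threshold (log2 fold change 0.32, SE 0.38, edgeR, adjusted p = 0.574). The second gene listed as FGF10, ENSDARG00000100475, was higher in distal tissue by 0.83 (SE 0.17; adjusted p = 0.00736). Its adjusted p was 0.0825 without both samples numbered 2 and 0.0802 without both numbered 3.

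Of the Fgf homologous factors, which stay inside the cell, 4 of 7 were tested and 2 were higher in distal tissue, and 3 with the replicate block, beside 15.3% and 23.3% of all tested genes. FGF11 had 1.49, 1.83 and 2.73 CPM in distal samples and 0.550, 0.640 and 0.372 CPM in proximal samples (log2 fold change 1.82, SE 0.34; adjusted p = 0.00552).

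Of 8 other receptor genes, 6 were tested by edgeR. In distal tissue 4 were higher (15.3% of all tested genes were), and none was higher in proximal tissue (14.4% of all tested genes were). FGFR2 had 93.4, 90.8 and 125 CPM in distal and 111, 122 and 107 CPM in proximal samples, a log2 fold change of -0.25 (SE 0.14; adjusted p = 0.214), which without distal sample 4 was -0.42 (adjusted p = 0.0207). FGFR3 had 109, 67.6 and 109 CPM in distal and 94.8, 82.3 and 81.1 CPM in proximal samples, and its log2 fold change of 0.03 (SE 0.19; adjusted p = 0.929) changed sign with the fit. By contrast fgfr4 was higher in distal tissue by 1.16 (SE 0.20; adjusted p = 0.00392), and the second gene listed as FGFR1, ENSDARG00000011190, by 0.89 (SE 0.17; adjusted p = 0.00626). Without both samples numbered 2 the adjusted p of ENSDARG00000011190 was 0.082 (edgeR). FGFRL1 was higher in distal tissue by 0.45 (SE 0.14, edgeR, adjusted p = 0.0424) and was called in 11 of 17 alternative fits. The gene fgfrl1b encodes a receptor-like protein without a kinase domain. It had 38.5, 33.3 and 36.4 CPM in distal and 10.4, 13.3 and 9.50 CPM in proximal samples, a log2 fold change of 1.59 (SE 0.14; adjusted p = 0.000123).

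Among other feedback inhibitors and response genes, 17 of 19 were tested, 8 rose and 1 fell in distal tissue, and with the replicate block 11 and 2. Over all tested genes 15.3% rose, and 23.3% with the block. The list median was 0.63. The 3 sprouty genes tested, whose products restrain Ras and ERK signalling downstream of receptors, rose distally. SPRY4 had 62.6, 103 and 81.1 CPM in distal samples and 15.2, 17.2 and 27.1 CPM in proximal samples (log2 fold change 1.91, SE 0.26; adjusted p = 0.00126). SPRY1 was higher in distal tissue by 1.49 (SE 0.13; adjusted p = 0.000145) and SPRY2 by 1.20 (SE 0.19; adjusted p = 0.0022).

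IL17RD, also called sef, encodes a membrane protein that antagonises Fgf signalling. It had 123, 148 and 147 CPM in distal samples and 38.8, 36.7 and 34.3 CPM in proximal samples, a log2 fold change of 1.81 (SE 0.10; adjusted p = 1.88e-05). The sprouty-related genes SPRED2 and spred2a were higher in distal tissue by 0.63 (SE 0.11; adjusted p = 0.00335) and 0.75 (SE 0.15; adjusted p = 0.00699). These regional differences were smaller than those of SPRY4 and IL17RD.

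The ETS factor gene etv5a, the paralog of etv5b, had 49.2, 45.8 and 48.4 CPM in distal samples and 26.1, 21.4 and 22.9 CPM in proximal samples. Its log2 fold change was 0.90 (SE 0.11; adjusted p = 0.000827), against 2.63 for etv5b. DUSP1, another phosphatase gene of the family of dusp6, had a log2 fold change of -0.05 (SE 0.19; adjusted p = 0.862), with a sign that changed with the fit. DUSP2 was higher in distal tissue by 0.64 (SE 0.21, edgeR, adjusted p = 0.0495) and was called in 9 of 17 alternative fits. DUSP4 and DUSP5 did not pass, at 0.94 and -0.18 (edgeR, adjusted p = 0.0751 and 0.656). With the replicate block DUSP4 passed, at 0.91 (edgeR, adjusted p = 0.000999), and DUSP5 did not. The gene listed as FLRT2 under ENSDARG00000097299 was lower in distal tissue, with 0.512, 0.447 and 0.298 CPM in distal and 11.0, 12.4 and 8.75 CPM in proximal samples (log2 fold change -4.77, SE 0.24; adjusted p = 1.03e-05). The more abundant gene listed as FLRT2, ENSDARG00000079355, did not pass the threshold. It had means of 60.0 CPM in distal and 54.8 CPM in proximal samples (log2 fold change 0.01, SE 0.13, edgeR, adjusted p = 0.963). FLRT genes encode transmembrane proteins with leucine-rich repeats, some of which bind Fgf receptors.

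**Figure D4:**
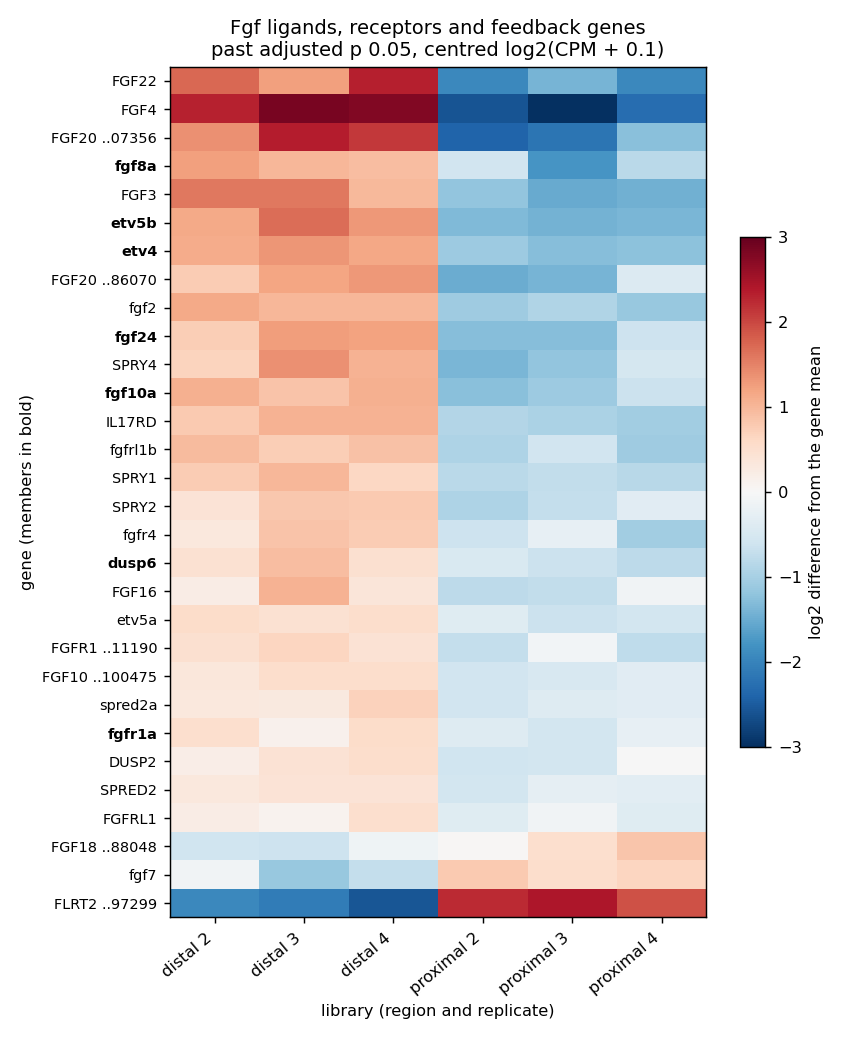
Centred log2(CPM + 0.1) of the 30 ligand, receptor and feedback or response genes past the adjusted p threshold of 0.05, members in bold, in the 6 libraries (colours end at 3 above or below the gene mean; digits after dots are the end of the Ensembl identifier of genes sharing a symbol). FGF18 ENSDARG00000088048, fgf7 and FLRT2 ENSDARG00000097299 are higher in the proximal libraries and the other 27 genes in the distal ones.

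Among 23 genes for Fgf binding proteins and for heparan sulfate, the co-factor of Fgf binding, 20 were tested. In distal tissue 7 rose (15.3% of all tested genes did) and 3 fell (14.4%). With the replicate block 10 rose and 4 fell, where 23.3% of all tested genes rose and 48.4% were called in either direction. Of these calls NDST1 ENSDARG00000062397 and HS6ST1 ENSDARG00000054754 passed the filter only through distal libraries, and HS6ST3 ENSDARG00000069500 only through proximal libraries, where they are high. The secreted binding protein gene fgfbp2a had 38.9, 56.4 and 43.8 CPM in distal samples and 14.1, 17.9 and 13.6 CPM in proximal samples, a log2 fold change of 1.49 (SE 0.15; adjusted p = 0.000307). Its relative fgfbp1b had a log2 fold change of -1.70 (SE 0.35; adjusted p = 0.0084). Of the genes for heparan sulfate chain synthesis, EXT1 ENSDARG00000103155 was higher in distal tissue by 0.69 (SE 0.09; adjusted p = 0.00117). NDST1 ENSDARG00000062397 had 2.05, 1.92 and 2.54 CPM in distal against 0.423, 0.274 and 0.419 CPM in proximal samples. The more abundant copies of both did not pass the threshold without the block. EXT1 ENSDARG00000101019 had means of 55.1 CPM in distal and 40.5 CPM in proximal samples (log2 fold change 0.33, edgeR, adjusted p = 0.207). With the replicate block it passed, at 0.35 (edgeR, adjusted p = 0.0105). NDST1 ENSDARG00000103606 had means of 42.9 and 35.4 CPM (log2 fold change 0.16, edgeR, adjusted p = 0.378). With the block it was 0.17 (edgeR, adjusted p = 0.142). Sulfatases of the SULF family trim sulfate groups from the chains. The gene sulf2a had 2.61, 2.15 and 1.19 CPM in distal and 3.77, 5.07 and 3.77 CPM in proximal samples, a log2 fold change of -1.20 (SE 0.29; adjusted p = 0.0169). Without distal sample 3 or proximal sample 3 the adjusted p of sulf2a was 0.0507 or 0.0564. The gene listed as SULF2 had a log2 fold change of 0.39 (SE 0.21; adjusted p = 0.195), with the replicate block 0.36 (adjusted p = 0.0137), and without distal sample 4 0.57 (adjusted p = 0.0424).

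The intracellular relay from receptor to ERK showed no common direction. Of 29 genes 27 were tested, and 3 rose and 6 fell in distal tissue. With the replicate block 7 rose and 9 fell, in a fit that called 48.4% of all tested genes. The share called without the block, 33.3%, was near the 29.7% of all tested genes, and the list median was 0.01. MAP2K1, the gene of the ERK kinase MEK1, had 17.6, 18.7 and 18.8 CPM in distal samples and 53.5, 44.7 and 62.0 CPM in proximal samples, a log2 fold change of -1.67 (SE 0.15; adjusted p = 0.000164). The adaptor gene SHC1 was lower in distal tissue, with a log2 fold change of -0.50 (SE 0.09; adjusted p = 0.00454). MAP2K2, the gene of the related kinase MEK2, had -0.24 (SE 0.11; adjusted p = 0.139), with the replicate block -0.25 (adjusted p = 0.0236). The ERK1 gene MAPK3 had -0.24 (SE 0.10; adjusted p = 0.112), with the block -0.25 (adjusted p = 0.0274).

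For each Fgf gene the tested genes with the nearest expression profile were found by the root mean square distance of centred log2 CPM over the 6 libraries. Here log2 CPM was taken after TMM scaling with a prior count of 2, which narrows differences at low counts. The nearest to fgf24 was the feedback gene SPRY4, at a distance of 0.11, followed by fam20ca at 0.13. The nearest to etv4 were ATL1 and apoeb, both at 0.07, and the nearest to etv5b were si:zfos-1011f11.2 at 0.09 and PRICKLE1 at 0.10. For dusp6 they were fthl31 at 0.05 and FGF13 ENSDARG00000056633 at 0.08, for fgfr1a ASPG and ETS1, both at 0.07, and for fgf10a RASSF8 at 0.12 and KCNH1 at 0.13. For fgf8a, whose profile rests on few reads, ACOT11 and CYP1B1 lay at 0.25. These distances are descriptions across 6 libraries that share their region contrast.

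The regions also differed in the markers of the tissues they hold. In whole tissue, fewer cells of a type and less RNA per cell cannot be told apart. All 5 distal epidermis genes were higher in distal tissue (15.3% of all tested genes were). Their summed level was 607 to 904 CPM in distal and 228 to 304 CPM in proximal libraries. Of 8 listed blastema mesenchyme markers 7 were tested, and 5 were higher in distal tissue. With the replicate block 7 were, in a fit where 23.3% of all tested genes rose. The listed markers summed to 955 to 1021 CPM in distal against 238 to 358 CPM in proximal libraries. The largest part of the distal sum came from msx2b, with means of 344 CPM in distal and 29.8 CPM in proximal libraries. Which cells expressed msx2b was not tested. General epidermis markers, led by krt5, summed to 22106 to 22693 CPM in distal and 44626 to 48954 CPM in proximal libraries. Of these 6 genes, 1 was higher in distal tissue and 3 were lower (14.4% of all tested genes were).

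Osteoblast markers summed to 2894 to 3590 CPM in distal and 4809 to 7095 CPM in proximal libraries. Of 6 tested genes of 7 listed, 3 were lower in distal tissue (14.4% of all tested genes were). With the replicate block, in a fit that called 48.4% of all tested genes, 3 were lower and 1 was higher in distal tissue. The higher gene was SP7, by 0.52 (edgeR, adjusted p = 0.00596). Most of the sum came from COL10A1 ENSDARG00000054753, with means of 2867 CPM in distal and 4532 CPM in proximal libraries. The untested osteoblast marker bglap had 0 reads in every library but 1, a proximal one with 2 reads. All 3 leukocyte markers found in the gene table were lower in distal tissue (14.4% of all tested genes were). They summed to 66.3 to 75.2 CPM in distal against 86.2 to 132 CPM in proximal libraries. Of the 3, CORO1A (edgeR, adjusted p = 0.0444) overlapped between the regions and was called in 8 of 17 alternative fits. The genes ptprc and LCP1 were called in 17 and 16. The further leukocyte markers mpx and mpeg1.1 had no match in the gene table. Of 7 pigment cell markers, 6 were lower in distal tissue (14.4% of all tested genes were) and 1 was higher (15.3%). Of the 6, 3 passed the filter only through proximal libraries. Pigment cell markers summed to 10.1 to 16.5 CPM in distal against 69.2 to 96.6 CPM in proximal libraries. Of 4 listed Schwann cell and nerve markers both tested genes were lower in distal tissue, beside 14.4% of all tested genes. Of these, 1 passed the filter only through proximal libraries. The listed markers summed to 0.671 to 1.44 CPM in distal against 5.49 to 6.90 CPM in proximal libraries. Neither of the 2 tested endothelium markers passed the threshold (0 called by edgeR, with and without the block). The 3 found in the gene table, which has no match for pecam1, summed to 37.8 to 42.4 CPM in distal against 29.3 to 47.0 CPM in proximal libraries. The untested endothelium marker cdh5 had 38, 12 and 7 reads in distal and 6, 3 and 2 reads in proximal libraries, a ratio of CPM of 5.43 with an exact 95% interval of 2.82 to 11.5. These differences in tissue markers, which run in both directions, lie between the same regions as those of the Fgf genes. Their part in the Fgf differences was not tested.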

How the data were processed

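The deposited files hold raw counts of reads per Ensembl gene, 1 file per sample. TopHat2, HTSeq and the build GRCz11 (danRer11) are named in the submitters' processing notes, and the labels' protocols name a Kapa stranded kit; versions, annotation release and the strand setting are not given in the sources used here, so reads of a gene and of an antisense partner may not be told apart. The deposited category lines set apart reads with no unique alignment, which can lower genes that have near-identical copies. A line without an identifier equalled the sum of the gene counts in every file (a share of 100% of gene reads) and was left out of the tests with the category lines. No coordinates or sequences are given.

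Counts of the 18455 genes kept by filterByExpr (minimum count 10) were scaled by TMM and tested with edgeR 4.0.16 in R 4.3.3 (glmQLFit, glmQLFTest, both regions in 1 fit, no block), with Benjamini-Hochberg adjustment over all tested genes. The SE is the absolute log2 fold change divided by the square root of F. CPM is per sum of gene counts. The log2 CPM behind the principal components, sample deviations and nearest profiles used TMM scaling over tested genes and a prior count of 2. Alternatives were other scalings and filters, DESeq2 1.42.0, limma-voom (limma 3.58.1), a replicate block, and samples left out; the fits by DESeq2 with the block and without a whole sample number were chosen after seeing the data. The code was tested on simulated data.

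Same-numbered samples deviated together from their region means (r = 0.42, 0.56 and 0.68 for numbers 2, 3 and 4 over tested genes). The title numbers were therefore taken as pairs in the replicate block and the within-pair ratios. The main fit and the permutation tests of the ratios did not use the pairs. Genes said not to pass the threshold are those of the fit without the block, unless the block is named. The labels do not say what a number marks. With the block 8938 genes were called, against 5480 without it. The labels do not say whether samples came from separate groups of fish, so p-values measure the spread between these samples. Intervals and floors cover counting error only.

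The members and lists were chosen with earlier results of these data known. The members were always named, and genes of the lists were named first among those past the threshold. Those not past it were named from the most abundant, as copies or relatives of a named gene or as examples of a changed sign. The 2 nearest profiles per member were named. Of 160 listed symbols 4 had no match in the gene table, which named 29178 of the 31901 identifiers.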

Additional observations from a re-analysis of the deposited data

How the results depend on the processing

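The 7 Fgf genes kept a positive log2 fold change in all alternatives run (16 for fgf8a, which the filter at a mean of 50 counts removed, and 17 for each other gene), and the replicate block changed none of the 7 calls. Fits that left out 1 sample gave fgfr1a between 0.59 and 0.82, below the threshold without distal or proximal sample 2. With both samples numbered 2 left out, fgfr1a was 0.61 (adjusted p = 0.152) and fgf8a 3.33 (adjusted p = 0.0889); with both numbered 3 left out fgf8a was 2.32 (adjusted p = 0.0506). These fits have fewer samples, and the part of this in the lost calls was not tested.

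Over all genes 5480 were called, 2819 distal and 2661 proximal. The replicate block gave 8938, 4306 and 4632, leaving out both samples numbered 2 gave 2231, 1243 and 988, and leaving out both numbered 3 gave 2932, 1699 and 1233. Library size alone moved the median of tested genes from -0.01 to 0.11 and gave 3640 and 1924. Single samples left out gave 1746 to 2443 genes higher in proximal tissue. Of the wider Fgf genes, 25 (19 distal, 6 proximal) were called without both samples numbered 2, and 25 (21 and 4) without both numbered 3; the cause was not tested.

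Alternative values were counted for 51 genes: the 44 wider Fgf genes past the threshold, FGFR2, FGFR3, SULF2, MAPK3, MAP2K2, DUSP1 and SHH ENSDARG00000068567. Of 860 values 740 kept direction and side, 100 lost and 9 gained the threshold, and 11 changed sign, none of them in a gene past the threshold. Other genes that did not pass are outside this count, and some of them changed sign too. Among these, fgf17 kept its sign in 8 of 16 alternatives and SULF1 in 9 of 17. FGFR3 was -0.0076 with limma-voom, -0.0031 with the replicate block, -0.00035 with DESeq2 and the block, -0.013 without both samples numbered 2 and -0.10 without both numbered 4, and from -0.088 to 0.24 in fits without 1 sample. DUSP1 was 0.072 with library size alone and from -0.23 to 0.13 in fits without 1 sample. Depth limits fgf8a and FGF22, whose proximal libraries were at or under the floor.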
